A study of Mus musculus with 12 samples.

Results

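Ptgs2, the gene of the inducible cyclooxygenase (prostaglandin-endoperoxide synthase 2, often called COX-2), was followed in spheroids of primary mouse hepatocytes. It was chosen on its levels by day and preparation in these arrays, so those levels are given as a description with no test. It is 1 gene, read by a single probe set, of 11861 genes in the table, and it is set beside 137 other measured genes of prostaglandin metabolism and of Ptgs2 control, of 184 listed.

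RNA came from male spheroids and female spheroids at days 1, 7 and 14 after spheroid formation, with no drug or genetic change in any group. The cells were C57BL/6 hepatocytes, frozen in pools of 3 animals each. The 4 pools, called here male 1, male 2, female 1 and female 2, formed spheroids by aggregating on their own in low-attachment plates, and each gave 1 array per day, 12 in all. The animals' age is not given in the sources used here, and a frozen hepatocyte pool can hold other liver cells. Values are log2 levels, so a difference of 1 is a doubling.

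Cyclooxygenases turn arachidonic acid, released from membrane lipids by phospholipases, into prostaglandin H2, from which separate synthases make prostaglandin E2, prostaglandin D2, prostaglandin F2 alpha, prostacyclin and thromboxane. Ptgs1 is the form most tissues keep on, and Ptgs2 is low in resting cells and is induced by cytokines, growth factors and stress. In liver, Kupffer cells, the resident macrophages, are a well-known source of prostaglandins, and hepatocytes take them up and break them down. Of the genes of the first steps, Ptgs1 and the cytosolic phospholipase gene Pla2g4a were not analysed here.

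The Ptgs2 promoter is known for sites of C/EBP, CREB and USF factors near its start, so the bases around the start are shown. The sequence is RefSeq's, on build GRCm38.p6, plus strand, and the capitals mark matches to 6 motifs searched on both strands. An E-box, bound by USF factors, was searched as CACGTG. The core of a cyclic AMP response element, bound by CREB, was searched as CGTCA, and a C/EBP palindrome as TTGCGCAA. The other motifs were an AP-1 site, TGANTCA with N for any base, a plain TATA box of the letters TATAAA and, by name alone, the NF-kappa-B site.
Ptgs2 chr1:150099781-150100030, the 250 bases before the annotated start: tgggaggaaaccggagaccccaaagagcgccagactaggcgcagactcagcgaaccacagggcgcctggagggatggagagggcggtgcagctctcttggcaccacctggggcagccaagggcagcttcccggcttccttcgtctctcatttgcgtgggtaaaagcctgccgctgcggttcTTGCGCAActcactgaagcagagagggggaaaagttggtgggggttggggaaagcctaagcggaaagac
Ptgs2 chr1:150100031-150100060, the first 30 bases from the annotated start: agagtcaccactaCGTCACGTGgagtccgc

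The C/EBP palindrome lay at positions -69 to -62 from the annotated start. The cyclic AMP response core, at positions 14 to 18, overlapped the E-box, at positions 17 to 22. Over all 32851 RefSeq promoter windows of mouse of the same length, 0.183% held the palindrome, 7.15% the E-box and 20.8% the response core. The window began 250 bases before the annotated start and ended shortly after the bases shown. No match to the AP-1, TATA or NF-kappa-B motif was found in it, against 7.81%, 13.6% and 8.46% of all windows. Sites outside the window were not searched. A match is a string of letters, and binding was not measured. RefSeq lists the long noncoding RNA gene Ptgs2os beside Ptgs2, and it was not analysed here.

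Ptgs2 was higher at each later day in all 4 preparations. In male 1 its log2 level was 5.38 at day 1, 6.88 at day 7 and 7.90 at day 14. In male 2 it was 5.05, 7.34 and 8.54 on those days. The female preparations began lower, with 4.25, 6.76 and 7.31 in female 1 and 4.01, 6.42 and 6.96 in female 2. Both male preparations stood above both female ones throughout, and the highest day 1 array lay below the lowest day 7 array.

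Over the 4 preparations the level averaged 4.67 ± 0.65 (day 1), 6.85 ± 0.38 (day 7) and 7.68 ± 0.70 (day 14), each with its SD. Day 7 exceeded day 1 by 2.18 ± 0.46 (SD over preparations, n = 4) and day 14 exceeded day 1 by 3.01 ± 0.40, an 8.03-fold difference. Day 14 exceeded day 7 by 0.83 ± 0.34, and the arrays of those days overlapped. The day 1 mean, and both female arrays of that day, lay under 4.79, the lowest of the highest values that the probe sets of the table reached. Such levels may be close to background, and a fold difference measured from them may be too small.

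**Figure D1:**
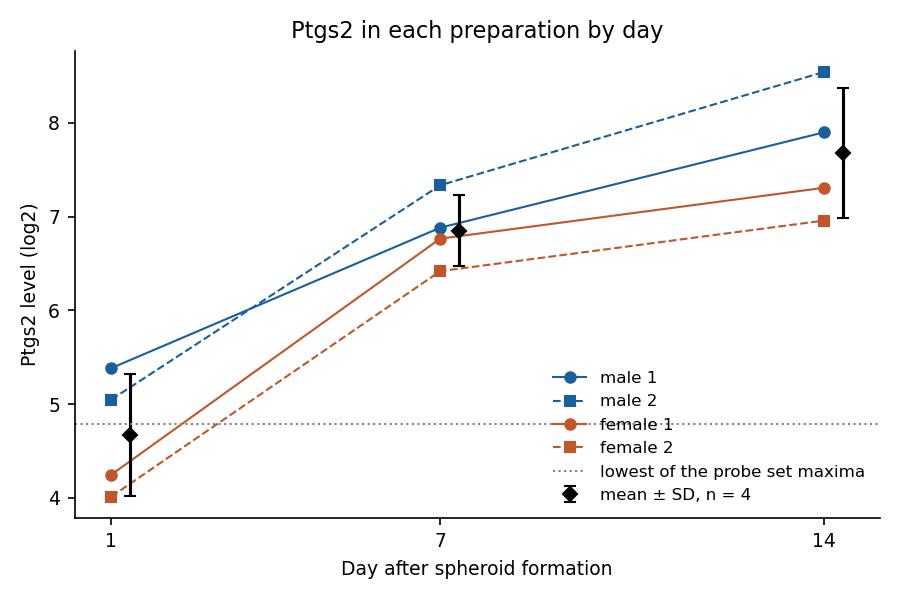
Ptgs2 level (log2) against the day after spheroid formation, 1 line per preparation (blue male, orange female), with black diamonds for the mean ± SD of 4 preparations and a dotted line at 4.79. All 4 lines climb, and both male lines lie above both female lines at each day.

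The share of the day 14 minus day 1 difference already present at day 7 was 59.5% in male 1 and 65.4% in male 2, against 82.3% in female 1 and 81.7% in female 2. The second week added 1.02 in male 1 and 1.21 in male 2, and 0.54 in each female preparation. Whether the sexes differed in these shares was not tested. Placed in order, the group means were 4.13 in females at day 1, 5.21 in males at day 1, 6.59 in females at day 7, 7.11 in males at day 7, 7.13 in females at day 14 and 8.22 in males at day 14. Of neighbours in this order, the arrays of day 7 males and day 14 females overlapped, and the others did not.

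By size, the day 14 minus day 1 difference of Ptgs2 ranked 3 of 11861 genes. Just above it stood Dpysl3, a cytoskeletal regulator, at 3.40, and Cldn6, a tight junction claudin, at 3.35. Just below it were Timp4, a metalloproteinase inhibitor, at 2.87, the claudin gene Cldn7 at 2.81 and the phosphatase gene Ptpn14 at 2.67. In day 7 minus day 1, Ptgs2 ranked 5.

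The preparations, and with them the sexes, were among the values the gene was chosen by, so male and female levels of Ptgs2 are also given without a test. Averaged over the days, male 1 stood at 6.72 and male 2 at 6.97, against 6.11 in female 1 and 5.80 in female 2. Male minus female was 0.90 over the days, and by day it was 1.09 at day 1, 0.52 at day 7 and 1.09 at day 14. At day 7 the lower male array, 6.88, stood just above the higher female array, 6.76. Each sex rests on 2 pools.

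Day 14 minus day 1 was 3.01 in males and 3.00 in females. Single preparations spread more widely than that, at 2.52 and 3.50 in male 1 and male 2 and at 3.06 and 2.95 in female 1 and female 2.

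Most genes that act after Ptgs2 passed no day test. Of the 19 measured genes that make, break down, carry or sense prostanoids, of 30 listed, 1 rose and 3 fell at day 14 against day 1, where 7.59% of all genes rose and 6.8% fell. At day 7 against day 1, 1 rose and 0 fell, against 2.74% and 1.98% of all genes. An unadjusted p under 0.05 at day 7 was found for 5 of the 19, beside 2315 of all 11861 genes. At day 14 it was found for 11 of the 19, beside 3398 of all genes. Their median change at day 14 was 0.13, beside 0.007 over all genes, and the greatest rise among them was 1.10, for Abcc4.

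**Figure D2:**
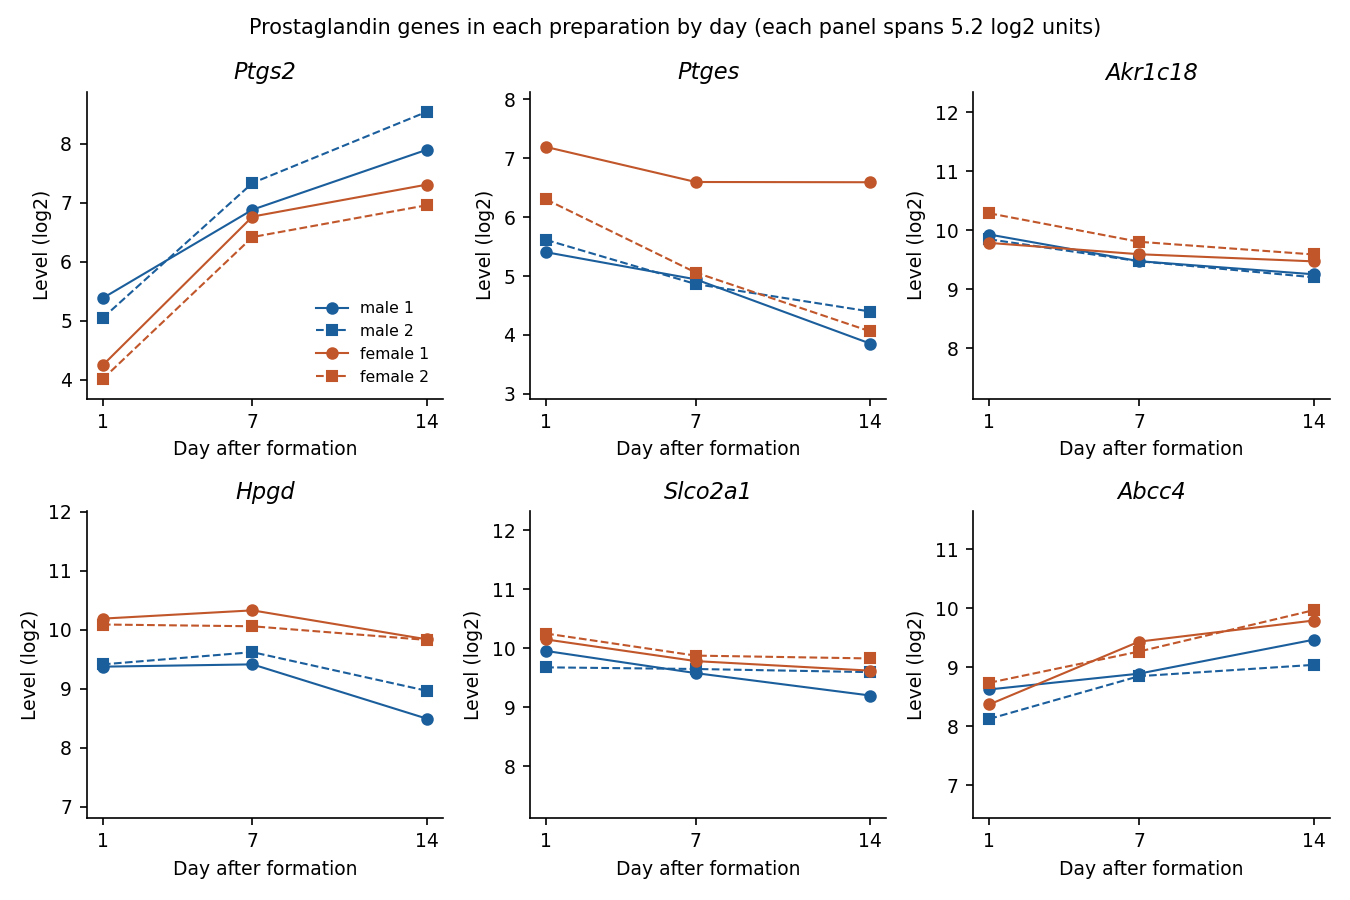
Log2 level by day after formation in each preparation for Ptgs2, Ptges and 4 other prostanoid genes, on axes of equal span. Those 4, Akr1c18, Hpgd, Slco2a1 and Abcc4, passed a day test. Ptgs2 and the exporter gene Abcc4 climb, and Ptges, Akr1c18, Hpgd and Slco2a1 end lower than they began.

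Among the synthases, Ptges encodes the inducible prostaglandin E2 synthase that often works with Ptgs2. In male 1 Ptges was at 5.40, 4.94 and 3.85 at days 1, 7 and 14, and in male 2 at 5.61, 4.86 and 4.40. In female 1 it was at 7.19, 6.59 and 6.59, and in female 2 at 6.30, 5.06 and 4.06. All 4 preparations ended lower than they began, while the day 1 and day 14 arrays overlapped because female 1 stood high throughout. At day 14 Ptges lay under 4.79 in male 1, male 2 and female 2, so its change may be measured less well. Day 14 minus day 1 was -1.40 ± 0.54 (SE), with an adjusted p of 0.125 by limma. With preparation as a replicate block, which compares days within each pool, the adjusted p was 0.0139. Without female 1 the change was -1.81, and without female 2 it was -0.99. In both refits the gene's own spread comes from the male pools alone, so no p-value is given for them. At day 14 the male pools differed by 0.54 and the female pools by 2.53.

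Akr1c18, which encodes an aldo-keto reductase known for breaking down progesterone and for prostaglandin F synthase activity, fell at day 14. It was at 9.26 and 9.21 in the male and 9.47 and 9.59 in the female preparations at day 14, against 9.93 and 9.85 in the male and 9.79 and 10.29 in the female preparations at day 1. The groups did not overlap, and the difference was -0.58 ± 0.11 (SE, adjusted p = 0.00941 by limma). It lost the call without male 1 (adjusted p = 0.13) or male 2 (adjusted p = 0.118). At day 7 the change was -0.38, with an adjusted p of 0.0982, and of 0.0481 with the replicate block.

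With all 4 preparations, the other 7 synthases did not pass in either day comparison with day 1. Cbr1, a carbonyl reductase that converts prostaglandin E2 to F2 alpha, changed by 0.28 (adjusted p = 0.0539 by limma, and 0.0491 with the replicate block). Ptges2 and Ptges3, further prostaglandin E synthases, changed by 0.34 and 0.14 at day 14. Prxl2b, a prostamide and prostaglandin F synthase, changed by 0.24, and Akr1b8, an aldo-keto reductase, by 0.10.

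Hpgds, the hematopoietic prostaglandin D synthase, and Tbxas1, thromboxane synthase, are known from macrophages and other blood-derived cells. Hpgds was at 5.54 in female 1 at day 14 and at 3.78 to 4.28 in the other 3 preparations. Tbxas1 was at 5.14 in female 1 at that day, against 3.42 to 4.46 in the other 3. Most arrays of both genes lay under 4.79, so their changes may be measured less well. Day 14 minus day 1 was 0.62 ± 0.35 for Hpgds and 0.09 ± 0.43 for Tbxas1 (SE, adjusted p of 0.295 and 0.918 by limma), and Tbxas1 turned to -0.50 without female 1. Without female 2, the Hpgds change was 1.02 for day 14 and 0.79 for day 7, and without female 1 its day 14 change was 0.22. These refits also take the gene's own spread from the male pools alone, so no p-value is given for them. The mean of 14 macrophage markers was also highest in female 1 at day 14, at 7.23 against 5.44 to 6.16 in the others, and its part in these levels was not tested.

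Hpgd encodes the enzyme that starts the breakdown of prostaglandins by oxidising the 15-hydroxyl group. Its levels were 9.38, 9.41 and 8.49 in male 1 and 9.41, 9.62 and 8.96 in male 2 at days 1, 7 and 14. They were 10.19, 10.33 and 9.84 in female 1 and 10.09, 10.06 and 9.83 in female 2. Each preparation was lowest at day 14, and the male arrays lay below the female arrays at every day. Day 14 minus day 1 was -0.49 ± 0.11 (SE, adjusted p = 0.0226 by limma). That call was lost without male 1 (adjusted p = 0.124), female 1 (0.136) or female 2 (0.117). Male minus female over all days was -0.84 ± 0.11 (SE, adjusted p = 0.0753), and at day 14 alone it was -1.10 (adjusted p = 0.0177), a call lost without male 1 (0.174), female 1 (0.178) or female 2 (0.133).

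Of the carriers, Slco2a1 encodes the transporter that takes prostaglandins into cells, and Abcc4 encodes a pump that exports them along with other organic anions. Slco2a1 fell by 0.45 at day 14 against day 1 (SE 0.11, adjusted p = 0.0251 by limma), and was lower in all 4 preparations. The call was lost without male 1 (adjusted p = 0.205), female 1 (0.151) or female 2 (0.125). Abcc4 was at 9.47 in male 1, 9.04 in male 2, 9.79 in female 1 and 9.97 in female 2 at day 14, against 8.62, 8.12, 8.37 and 8.74 in the same preparations at day 1. The groups did not overlap, and Abcc4 rose by 1.10 ± 0.14 (SE, adjusted p = 0.00195 by limma). At day 7 the change was 0.65 ± 0.14 (adjusted p = 0.0418), a call lost without any 1 of the 4 preparations (adjusted p 0.117 to 0.25). Of the reductases that act after Hpgd, Ptgr1, Ptgr2 and Zadh2 changed by 0.24, 0.27 and -0.05 at day 14 and did not pass.

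Of 10 prostanoid receptor genes 4 were measured, and 0 passed in a day comparison. At day 14 against day 1, 2 had an unadjusted p under 0.05, beside 3398 of all 11861 genes. Ptger3, a prostaglandin E2 receptor, was at 3.32 and 3.47 in the male preparations at day 14, against 5.06 and 5.10 in them at day 1. In the female preparations it was at 5.43 and 4.85 at day 14, against 4.71 and 4.71 at day 1. Its change averaged over the sexes was -0.63 ± 0.21 (SE, adjusted p = 0.0862 by limma). Ptger1, another receptor of prostaglandin E2, changed by 0.13, the thromboxane receptor gene Tbxa2r by -0.09 and Ptgfrn, which encodes a regulator of the prostaglandin F receptor, by 0.29. Several arrays of Ptger3 and Tbxa2r lay under 4.79, so their changes may be measured less well.

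Over all pathway lists, 16 of the 137 other genes rose and 8 fell at day 14 against day 1, which is 11.7% and 5.84%, beside 7.59% and 6.8% of all genes. At day 7 against day 1, 8 rose and 1 fell, which is 5.84% and 0.73%, beside 2.74% and 1.98% of all genes. At day 14 against day 7, 1 gene rose and 0 fell, where 0.304% of all genes rose and 0.185% fell. The day 14 count was 37 with a trend and robust spread, where 2183 of all genes were called, and it fell with any 1 preparation left out. The day 7 count of 9 also fell with any 1 preparation left out. Each such refit leaves 1 pool in a sex, and calls over all genes fell in it too. A call lost in such a refit therefore cannot by itself show that a gene is less steady than others.

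**Figure D3:**
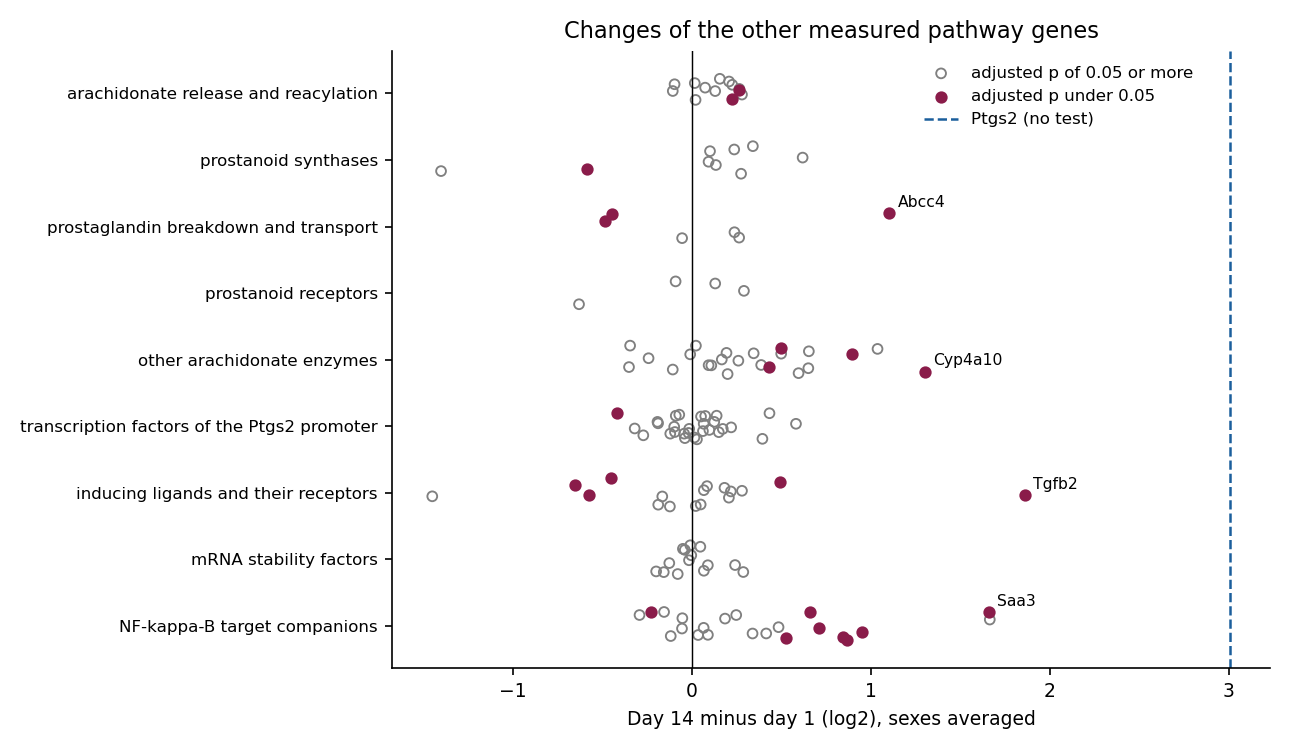
Day 14 minus day 1 (log2) for each of the 137 other measured pathway genes, 1 point per gene in rows by list, filled where the adjusted p was under 0.05, with a dashed line at the Ptgs2 difference of 3.01. No point reaches the Ptgs2 line, and the filled points farthest right are Tgfb2, Saa3, Cyp4a10 and Abcc4.

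Of 13 measured genes that release or re-esterify arachidonate, 2 rose at day 14 against day 1 and 0 fell, or 15.4% and 0%, beside 7.59% and 6.8% of all genes. Daglb, a diacylglycerol lipase, rose by 0.26 ± 0.07, and Lpcat3, which puts arachidonate back into phospholipids, by 0.23 ± 0.06 (SE, adjusted p of 0.0434 and 0.0355 by limma). Both calls were lost without any 1 of the 4 preparations (adjusted p 0.0915 to 0.26), and Lpcat3 had an adjusted p of 0.0595 with the replicate block.

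Arachidonate is also used by cytochrome P450 enzymes and lipoxygenases. Of 23 such genes measured, 4 rose at day 14 and 0 fell, or 17.4% and 0%, beside 7.59% and 6.8% of all genes, and the median change was 0.26. Cyp4a10, a fatty acid omega-hydroxylase and target of the receptor PPAR alpha, was at 4.65, 4.90, 5.13 and 5.06 in male 1, male 2, female 1 and female 2 at day 14, against 3.73, 3.87, 3.84 and 3.10 at day 1. Its change was 1.30 ± 0.21 (SE, adjusted p = 0.00537 by limma), lost without male 1 (adjusted p = 0.0848) or male 2 (0.0855), and most of its arrays lay under 4.79. Cyp4a12b, a related hydroxylase, rose by 0.90 ± 0.20 (adjusted p = 0.0199), a call lost without male 1 (0.132), female 1 (0.0832) or female 2 (0.109). It changed by 1.96 and 1.11 in male 1 and male 2 but by 0.18 and 0.35 in female 1 and female 2. Every female array lay under 4.79. Of the Cyp4a12b arrays only the male ones of day 14, at 5.39 and 5.36, lay above that level. Cyp4a10 lay above it only at day 14 and, in female 2, at day 7. If probe sets were kept by their highest level, both genes entered the table through such arrays, which favours a rise. Whether they were is not given, and both are among the 4 counted as rising. The Cyp4a genes have near-identical copies, so their signals may not be fully separate.

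Cyp2j6, an arachidonate epoxygenase, rose by 0.50 ± 0.06 at day 14 (SE, adjusted p = 0.00138 by limma) and by 0.42 at day 7 (adjusted p = 0.00946). Its day 7 call was lost without any 1 of the 4 preparations (adjusted p 0.0849 to 0.179). Ephx2, the soluble epoxide hydrolase that degrades the epoxides, rose by 0.43 ± 0.08 at day 14 (adjusted p = 0.00844), a call lost without any 1 of the 4 (0.0507 to 0.0993). The only pathway gene that passed for sex over all days was Cyp4a12a, named after its values were seen, at 2.57 higher in males (adjusted p = 0.0423 by limma). That call was lost without male 1 (0.226) or male 2 (0.0713), and after a second quantile normalization (0.0516).

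Of 29 measured transcription factor genes tied to the Ptgs2 promoter, 0 rose and 1 fell at day 14 against day 1, or 0% and 3.45%, where 7.59% and 6.8% of all genes did. The median change was 0.02. The one that fell was Fosl1, an AP-1 subunit, by 0.42 ± 0.08 at day 14 and by 0.43 ± 0.08 at day 7 (SE, adjusted p of 0.0104 and 0.0227 by limma). Both calls were lost without any 1 of the 4 preparations (adjusted p 0.0636 to 0.247). For the families whose motifs stand near the start, chosen after their values were seen, Cebpb changed by -0.10, Creb1 by -0.01 and Usf1 by -0.12, and none passed. These are mRNA levels, and the activity of the factors was not measured.

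Of 17 measured ligand and receptor genes that can lead to Ptgs2 induction, 2 rose and 3 fell at day 14 against day 1, or 11.8% and 17.6%, beside 7.59% and 6.8% of all genes. Tgfb2, a transforming growth factor beta ligand, changed most among those that passed. It was at 5.03, 6.16 and 7.14 in male 1, 5.18, 6.09 and 7.00 in male 2, 4.75, 5.27 and 6.36 in female 1 and 4.26, 5.47 and 6.17 in female 2 at days 1, 7 and 14. It rose by 0.94 ± 0.11 by day 7 and by 1.86 ± 0.11 by day 14 (SE, adjusted p of 0.00526 and 7.51e-05 by limma). The day 7 call was lost without male 1 (adjusted p = 0.126) or male 2 (0.0847). It was also the 1 pathway gene that rose at day 14 against day 7, by 0.92 (adjusted p = 0.0219), a call lost without any 1 of the 4 preparations (0.0675 to 0.251).

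Tlr2, a receptor of bacterial lipoproteins, rose by 0.49 ± 0.13 (SE, adjusted p = 0.0394 by limma), a call lost without any 1 of the 4 preparations (adjusted p 0.106 to 0.169). Ereg and Btc, ligands of the epidermal growth factor receptor, fell by 0.65 and 0.57 at day 14 (adjusted p of 0.00456 and 0.00632). Ereg lost its call without male 1 (0.0681) or male 2 (0.0527), and so did Btc (0.0514 and 0.109). The third gene that fell, named after its values were seen, was Egfr, that receptor's own gene, by 0.45 (adjusted p = 0.00783), and its call was lost without female 2 (0.0618), male 1 (0.0965) or male 2 (0.0834). The cytokine genes Il1a, Il1b, Tnf and Il6 were not analysed here.

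Of 14 measured genes for factors that steady or destroy the Ptgs2 mRNA, 0 passed in a day comparison. At day 14 against day 1, 2 had an unadjusted p under 0.05, beside 3398 of all 11861 genes. Tia1, a protein that binds AU-rich messages and represses their translation, changed most, by 0.29 ± 0.09 (SE, adjusted p = 0.074 by limma, and 0.0469 with the replicate block).

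NF-kappa-B is the main transcription factor of inflammatory signalling, and Ptgs2 is among its known targets. Of 22 other measured targets, 7 rose and 1 fell at day 14 against day 1, which is 31.8% and 4.54%, beside 7.59% and 6.8% of all genes. At day 7 against day 1, 5 rose and 0 fell, or 22.7%, beside 2.74% of all genes. Their median change at day 14 was 0.29. The list's share was not tested against that of other genes. Its members were chosen with earlier results of these data known, which can raise that share.

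Saa3, an acute phase serum amyloid, was at 9.39, 9.66, 8.63 and 9.84 in male 1, male 2, female 1 and female 2 at day 14, against 7.99, 7.66, 7.48 and 7.76 at day 1. It rose by 1.66 ± 0.30 (SE, adjusted p = 0.00833 by limma), a call lost without male 1 (adjusted p = 0.0925) or male 2 (0.126). Tnfaip3, the ubiquitin-editing inhibitor A20 that damps NF-kappa-B, was at 9.11, 9.08, 9.19 and 8.91 at day 14, against 8.45, 8.07, 8.03 and 7.93 at day 1. It rose by 0.95 ± 0.13 at day 14 and by 0.72 ± 0.13 at day 7 (adjusted p of 0.00225 and 0.0197), and the day 7 call was lost without any 1 of the 4 preparations (0.0672 to 0.212).

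The chemokine genes Cxcl16 and Ccl2, whose products draw T cells and monocytes, rose by 0.87 and 0.85 at day 14 (SE of 0.09 and 0.12, adjusted p of 0.000961 and 0.00277 by limma). At day 7 they rose by 0.47 and 0.59 (adjusted p of 0.0312 and 0.0319). The day 7 call of Cxcl16 was lost without any 1 of the 4 preparations (0.0733 to 0.268) and that of Ccl2 without female 2, male 1 or male 2 (0.0911, 0.231 and 0.284). The day 14 call of Ccl2 was lost without male 1 (0.061) or male 2 (0.0639). Ccl2 changed by 0.19 and 0.29 in male 1 and male 2, against 1.11 and 1.79 in female 1 and female 2, and the sex difference in that change was -1.21 (adjusted p = 0.31 by limma). The other genes of the list called at day 7, named after their values were seen, were Icam1 and Ccl20, which rose by 0.37 and 0.90 (adjusted p of 0.0145 and 0.0215), calls lost without any 1 of the 4 preparations (0.055 to 0.22). Ccl20 changed at day 7 by 0.02 and 0.58 in male 1 and male 2, against 1.24 and 1.74 in female 1 and female 2, a sex difference of -1.19 (adjusted p = 0.79). The one that fell at day 14 was Bcl3, an atypical inhibitor of the pathway, by 0.23 (adjusted p = 0.0375), a call lost in the same 4 cases (0.155 to 0.23).

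Ccl2 and Nfkbiz, an inducible regulator of NF-kappa-B, had higher means in males, as Ptgs2 did, without passing the sex test. Ccl2 differed by 0.80 and Nfkbiz by 0.51 over all days (adjusted p of 0.0735 and 0.0743 by limma), and both were singled out after their values were seen. With a trend and robust spread both passed (adjusted p of 8e-05 and 0.00106 by limma). In that fit 974 of all 11861 genes passed for sex, against 21 without that setting, so passing there is not particular to them. Among the 19 prostanoid genes the other sign was usual. Male minus female was above 0 in 1 of the 19, with a median of -0.25, while it was above 0 in 6496 of 11861 genes, with a median of 0.02. Of those 19 genes 0 passed for sex, where 0.177% of all genes passed in either direction. An unadjusted p under 0.05 was found for 9 of them, beside 2344 of all 11861 genes. For the sex difference in the change to day 14, 0% of all genes passed, and of the 137 pathway genes 0 passed. An unadjusted p under 0.05 was found for 15 of the pathway genes, beside 815 of all 11861 genes.

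Across the 12 arrays, the genes whose levels ran most like those of Ptgs2 were found by Pearson's correlation. The points share preparations and the day trend, so this describes likeness alone. Marcks, a membrane and actin regulator, came first at 0.975, followed by the microtubule protein gene Map1b at 0.967 and the aldehyde dehydrogenase gene Aldh1a7 at 0.967. Then came the acyl-CoA thioesterase gene Acot2 at 0.958, the intermediate filament gene Vim at 0.954 and the mitochondrial isocitrate dehydrogenase gene Idh2 at 0.953. The riboflavin transporter gene Slc52a3 (0.952), Acot1 (0.948), Cldn7 (0.945) and Parp8 (0.945) completed the 10. The most unlike were Fdx1, which encodes an electron carrier of mitochondrial P450 enzymes, at -0.960, Layn at -0.959, the lysosomal thioesterase gene Ppt1 at -0.958, Tnfrsf26 at -0.949 and the peptidase gene Cndp2 at -0.945.

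Of these 10 most alike genes, 4 were among the 10 by Spearman's correlation and 1, Cldn7, by the distance between the changes within preparations. None was among the 10 by levels taken relative to the mean of their day. Promoter windows were at hand for 8 of the 10, and of these 3 held the cyclic AMP response core, 3 the TATA motif, 2 the NF-kappa-B motif and 0 each of the E-box, the C/EBP palindrome and the AP-1 motif. The shares of all windows that hold each are given with the sequence.

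Markers of other liver cells moved over the same days. The 10 hepatocyte markers were all measured, and their mean level was 11.69 to 11.92 on the 12 arrays. Some of them, such as Alb at 12.71 to 12.78, lay close to 12.84, the highest value of the table. A change of such genes may be measured less well. The mean of 14 macrophage markers, of 17 listed, ran from 5.44 to 7.23 at day 14 and from 5.45 to 6.68 at day 7, against 4.68 to 5.78 at day 1. Their median change was 0.73 at day 7 and 0.96 at day 14, and 0 and 2 of them rose, beside 2.74% and 7.59% of all genes. For 3 of the 14, the mean lay under 4.79 at every day. The markers that passed at day 14 were Csf1r and Cd14, which rose by 1.21 and 0.33 (adjusted p of 0.0268 and 0.023 by limma). Lyz2, Cd5l and Vsig4, which did not pass, changed by 2.38, 2.08 and 1.27, each higher at day 14 than at day 1 in all 4 preparations. Clec4f, a gene particular to Kupffer cells, changed by -0.08 (adjusted p = 0.931). These genes were named after their values were seen.

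Female 1 had both a higher macrophage mean and more Ptgs2 than female 2 at each day, while it had a higher macrophage mean and less Ptgs2 than either male preparation. Male 1 had a higher macrophage mean than male 2 at each day, with more Ptgs2 at day 1 and less at days 7 and 14. Of 7 measured cholangiocyte markers, of 12 listed, 3 rose at day 7 and 5 at day 14, beside 2.74% and 7.59% of all genes. Krt7 and Sox9 went the other way, lower at day 14 than at day 1 in all 4 preparations. Krt7 changed by -0.36 to -0.88 and Sox9 by -0.12 to -0.45. Cldn7, named above among the genes most like Ptgs2, is on this list. The mean of the 7 was 7.23 to 7.71 at day 14, against 6.08 to 6.51 at day 1. Of 14 stellate cell and fibroblast markers, of 15 listed, 8 fell at day 14, beside 6.8% of all genes. Their mean at day 14 was 4.06 and 5.21 in male 1 and male 2 and 6.84 and 6.41 in female 1 and female 2, against 7.00 to 7.26 over the 4 preparations at day 1, so at day 14 the males were lower where their Ptgs2 was higher. Of 8 endothelial markers, of 13 listed, 4 fell at day 14, beside the same 6.8%, with a mean of 4.05 to 5.43, against 5.29 to 6.11 at day 1. Of 3 mesothelial markers, of 8 listed, 1 rose at day 14, beside 7.59% of all genes, and 2 had a mean under 4.79 at every day. Neutrophil and lymphocyte markers were not analysed here. In RNA from whole spheroids, fewer cells of a type and less RNA per cell cannot be told apart. The part of these cells in the Ptgs2 levels was not tested.

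**Figure D4:**
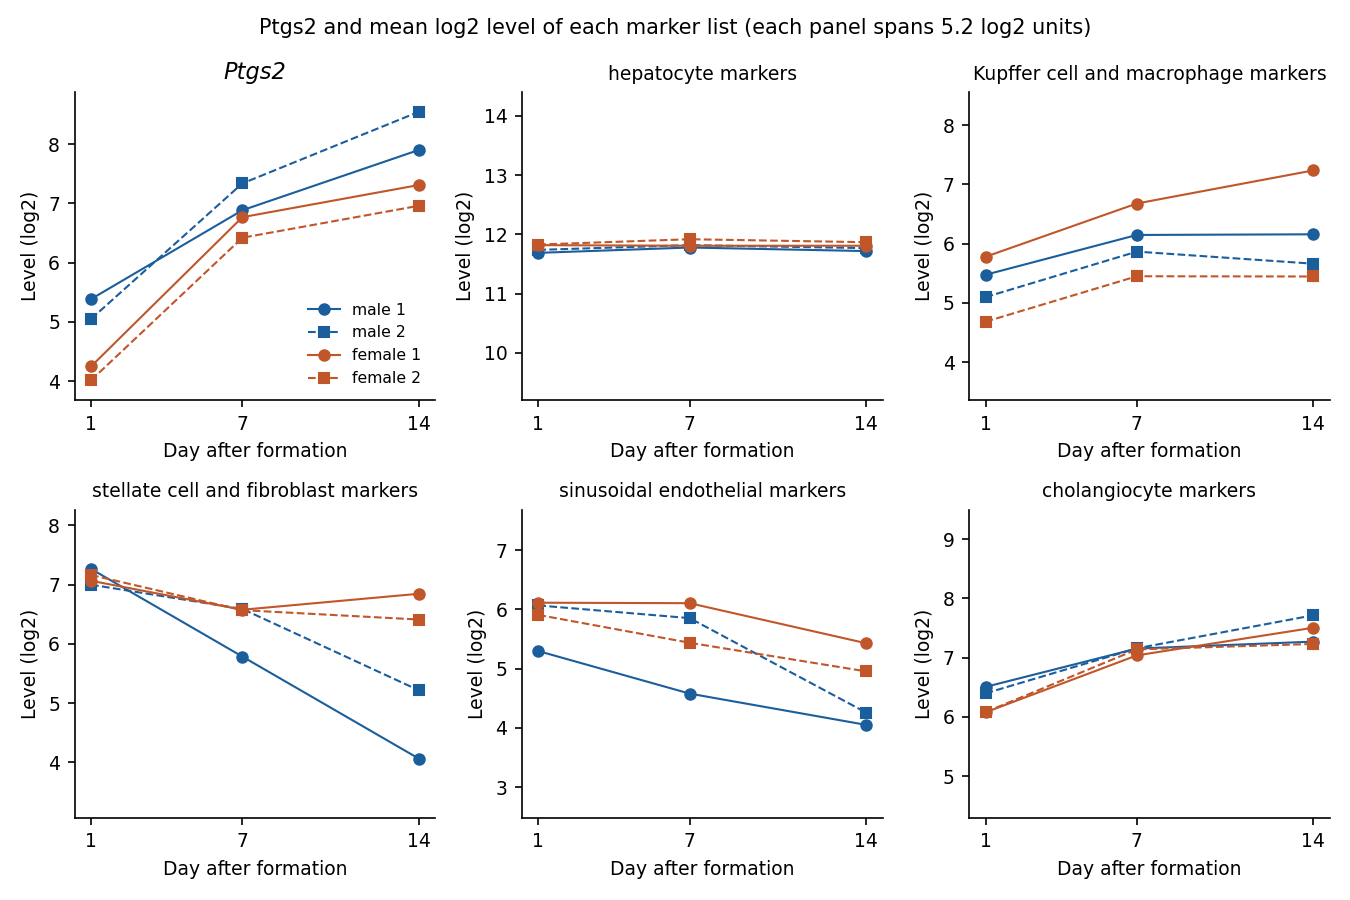
Ptgs2 and the mean log2 level of 5 marker lists by day after formation, 1 line per preparation, on axes of equal span. The hepatocyte lines lie between 11.69 and 11.92, the macrophage and cholangiocyte lines end higher than they began, and the stellate and endothelial lines end lower.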

How the data were processed

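Total RNA of 12 samples was read on expression arrays after biotin labelling. The deposited values are log2 levels, 1 per probe set. Per the submitters' processing notes, RMA, Transcriptome Analysis Console 4.0 and Partek 7.0 were used, without their roles. The array build and filters: not given in the sources used here. Of 13081 probe sets 11889 had 1 gene symbol, from the platform annotation, and 1192 had none. Where a symbol had several (19 symbols), its brightest probe set on average stood for it, leaving 11861 genes. No scanner files were used, and 0 sample columns were left unused.

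Tests were run with limma 3.58.1 in R 4.3.3: 1 model with a mean for each of 6 groups of sex and day, sexes weighted equally, two-sided, with p-values adjusted over all genes (Benjamini-Hochberg) and a threshold of 0.05. Sex over all days was tested with limma on 4 preparation means, and alternatives by refitting limma under the setting named beside them. The sex test planned for Ptgs2 is not reported as a test, since preparations were part of how the gene was chosen. Same-numbered arrays of a sex are the same pool, per the labels, so days are paired; deviations of paired arrays correlated at 0.04 to 0.32. P-values reflect the spread between pools, and the median standard error of a day comparison was 0.0946. Named were Ptgs2, all measured prostanoid genes, and from each other list up to 4 genes past a day test with the largest change, or the 1 largest. Gene lists and members were chosen with earlier results of these data known. Array medians were 7.48 to 7.54, and each array's mean correlation with the others was 0.965 to 0.981, lowest in male 1 at day 14. RefSeq sequences and names are of GRCm38.p6.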

Additional observations from a re-analysis of the deposited data

Results flagged for a closer look

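In groups of 4 arrays, 1 per preparation, 3 of 60 checks (20 genes at 3 days) had 1 array far from the other 3, and chance alone gives about 1 in 20. Ptges at day 7 was at 6.59 in female 1, against 4.86 to 5.06 in the others, a gap of 0.887 of the whole range. Hpgds at day 7 was at 5.19 in female 1, against 4.07 to 4.23 in the others, a gap of 0.855 of the range. Prxl2b at day 14 was at 6.02 in female 2, against 5.95 in each of the others, a gap of 0.934 of a range of under 0.1. Ptgs2 had no such array at any day.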

How the results depend on the processing

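Ptgs2 day 14 minus day 1 stayed between 2.84 and 3.17 with 1 preparation left out, in each sex alone and under both rescalings, and no test was made of it. With 1 preparation left out, the lone pool of its sex was assumed to vary like the others. In the day comparisons, calls over all genes fell in every such refit, so a lost call does not single out a gene. Counts of pathway genes past the test are given first as in the text, then with a trend and robust spread, then as the range with 1 preparation left out. They were 9, 20 and 0 to 3 at day 7 against day 1, 24, 37 and 7 to 18 at day 14 against day 1, and 1, 7 and 0 to 1 at day 14 against day 7. They were 1, 25 and 0 to 1 for sex over all days. The sex difference in the change gave 0, and 0 to 1 with 1 preparation left out. In males alone the 3 day counts were 1, 11 and 0, and in females alone the first and the last were 3 and 0. With the replicate block of paired days, day 14 against day 7 gave 4 calls, beside 101 over all genes. The other day counts moved by less than 1.5 times with it. Sex over all days gave 0 calls after a second quantile normalization and 2 with low genes left out, beside 17 and 58 over all genes. It gave 2 at day 1 alone and 6 at day 14 alone, with all-gene counts not given here. With a trend and robust spread, calls over all 11861 genes were 956, 2183 and 309 in the 3 day comparisons, in the order above. For sex over all days they were 974, against 21 without that setting. For Ptgs2, the sex difference was 0.90, which a trend and robust spread cannot move, and no test of it is given. Its sex difference in the day 14 minus day 1 change was -0.034 after a second quantile normalization and -0.49 to 0.49 with 1 preparation left out. Uncalled changes that turned sign with 1 preparation left out ran as follows: at day 7 Ptges2 from -0.21 to 0.074, Tbxas1 from -0.35 to 0.68, Akr1b8 from -0.23 to 0.080, Zadh2 from -0.074 to 0.12, Ptgfrn from -0.047 to 0.16, Cyp4a12b from -0.17 to 0.062, Tia1 from -0.030 to 0.11, and at day 14 Ptges3 from -0.0074 to 0.28, Tbxas1 from -0.50 to 0.69, Zadh2 from -0.15 to 0.045, Tbxa2r from -0.27 to 0.094 and Creb1 from -0.14 to 0.11. The causes were not tested. The number of arrays limits what could be detected.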
